A study of Mus musculus with 4 samples.

Results

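Chemokines are small secreted proteins that guide moving cells, and 10 mouse genes of this kind were followed in NIH3T3 fibroblasts in which the protease inhibitor gene Timp1 was silenced. They were taken as the non-control array probes whose gene name was Ccl2, Ccl5, Ccl7, Ccl17, Ccl20, Cxcl1, Cxcl5, Cxcl10, Cxcl12 or Cx3cl1. This gave 13 of 56605 probes, for 10 of 37074 gene names, with 2 probes each for Cxcl10, Cxcl12 and Cx3cl1. The family was chosen because Ccl17 was higher with the Timp1 siRNA in these same arrays, so the differences between the groups are given for the 10 genes as a description and are no test of them.

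The cells were NIH3T3, an established mouse fibroblast line that the labels also call dermal fibroblasts, kept in 2% fetal calf serum. One group was transfected with a control siRNA (siControl, 2 arrays) and the other with an siRNA against Timp1 (siTIMP1, 2 arrays), both with the apatite nanoparticle carrier sCA, so that carrier, serum and cell line were shared by both groups. The siRNA sequences, their dose and the time after transfection are not given in the sources used here, and every value comes from 1 cell line. The labels do not say whether the arrays of a group came from separate cultures, so any p-value measures only the spread between these arrays, which may be technical.

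Chemokines are grouped by the spacing of the first cysteines of the mature protein into CC, CXC, CX3C and XC ligands. They bind heparan sulfate on cell surfaces and matrix, act through G protein-coupled receptors on the responding cell, and are removed by atypical receptors that bind them without classical signalling. Fibroblasts are a known source of several of them: inflammatory signals that act through NF-kB, interferons or STAT6 switch many on, and some of their mRNAs are short-lived because of AU-rich stretches that decay factors recognise.

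The arrays read short stretches of each mRNA through 60-base probes. For 6 of the 13 probes 30 bases are shown, because they belong to the gene with the largest difference (Ccl17), tell the Cxcl12 transcript forms apart or hold letters that bear on mRNA stability or the end of the message. Capitals mark ATTTA, the core of AU-rich elements, and AATAAA, the polyadenylation signal, both searched on the probe's own strand. Bases are counted from the 5′ end of the probe.
Ccl17, bases 31 to 60: ttcaacataaagcggcctgtgaccagcaga
Cxcl12 variant 1, bases 16 to 45: ccgtatgtgggaATTTATTTAcctgaaata
Cxcl12 variants 2 and 3, bases 31 to 60: tgctttcttattcttatttttaatatatga
Cxcl1, bases 31 to 60: tacaaatgaagtaaaAATAAAagttttatt
Cxcl5, bases 1 to 30: gctgagatATTTAgatgtctgtagtgtgtc
Ccl20, bases 15 to 44: ctatgtttagctATTTAatgttaatttccc
ATTTA was found in 3 of the 13 probes (Ccl20, Cxcl5 and the Cxcl12 variant 1 probe, where copies overlap), against 8.08% of all 56605 probes. AATAAA was found in 2 of the 13 (Cxcl1 and the Cxcl12 variant 1 probe, outside the stretch shown), against 9.77% of all probes. These are matches of letters in a 60-base window and say nothing of the rest of the mRNA.

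Promoter windows, from RefSeq on build GRCm38.p6, were matched by symbol for Ccl17, Ccl20, Cxcl1, Cxcl10, Cxcl12 and Cx3cl1, 6 of the 10 genes. Those without an entry are Ccl2, Ccl5, Ccl7 and Cxcl5. The windows shown are that of Ccl17, which had the largest difference between the groups, that of its chromosomal neighbour Cx3cl1, and those of Cxcl1 and Cxcl10, textbook NF-kB and interferon targets. Each ends at the base before the annotated start, and capitals mark matches on either strand to the NF-kB pattern (GGG and CC with any 5 bases between), AP-1 (TGANTCA), the interferon-stimulated response pattern (GAAA and GAAA with any 2 bases between) or STAT6 (TTC and GAA with any 4 bases between).
Ccl17, chr8:94810203-94810452, + strand: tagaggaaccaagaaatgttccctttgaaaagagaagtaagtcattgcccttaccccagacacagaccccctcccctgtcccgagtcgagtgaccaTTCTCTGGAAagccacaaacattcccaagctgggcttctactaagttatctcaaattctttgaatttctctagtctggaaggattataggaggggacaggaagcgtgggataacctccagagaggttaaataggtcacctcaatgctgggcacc
Cx3cl1, chr8:94772060-94772179, + strand: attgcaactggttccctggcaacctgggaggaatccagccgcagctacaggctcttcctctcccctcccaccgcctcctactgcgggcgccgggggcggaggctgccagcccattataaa
Cxcl1, chr5:90891125-90891244, + strand: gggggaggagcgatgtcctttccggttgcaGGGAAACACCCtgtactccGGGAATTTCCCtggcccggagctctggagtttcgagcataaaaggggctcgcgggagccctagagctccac
Cxcl10, chr5:92348890-92349139, - strand: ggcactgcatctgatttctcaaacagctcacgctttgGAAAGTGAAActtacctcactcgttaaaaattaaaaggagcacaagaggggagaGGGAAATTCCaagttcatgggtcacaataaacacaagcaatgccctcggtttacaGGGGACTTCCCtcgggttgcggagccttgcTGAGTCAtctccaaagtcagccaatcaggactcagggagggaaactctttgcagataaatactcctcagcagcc
Over the 250 bases before the start, the STAT6 letters were found in Ccl17 alone among the 6, and in 5.86% of all 27025 promoters. The NF-kB letters were found in Ccl20, Cxcl1, Cxcl10 and Cxcl12, but this loose pattern is in 45.4% of all promoters. Cxcl10 alone held the interferon letters (3.04% of all) and the AP-1 letters (6.87% of all). A match is not a site shown to be bound. Where a stretch of capitals in Cxcl1 or Cxcl10 is 11 letters long, NF-kB matches on both strands overlap.

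Timp1, the targeted gene, kept 2.68% of its siControl level with siTIMP1 (log2 fold change -5.22, SE 0.16, limma adjusted p = 0.0105; not called without a variance trend or without either siTIMP1 array, at -5.37 and -5.07). The 4 arrays shared 1 slide and the groups took separate places on it, so place and siRNA cannot be told apart. The share of spots well above background ran from 45.9% to 52.1%, and no spot was saturated. The 8 fibroblast markers, among them Col1a1, Col1a2 and Vim, were well above background on all 4 arrays. None of the 8 passed the limma threshold (lowest adjusted p 0.0618, Pdgfra, log2 fold change -0.88), but Pdgfra passed in 4 of 14 alternatives, without siControl replicate 1 (-0.78) or 2 (-0.98), with no filter on dim probes and with robust eBayes. Its other tested probes gave -0.40 and -0.20, and the mean of its probes -0.49. Col3a1 (0.40) passed without siControl replicate 1 (0.72) and was 0.08 without siControl replicate 2. Other tested Col3a1 probes gave 0.28 and 1.28. Of 10 macrophage and dendritic cell markers 5 were above background on all arrays (Ptprc, Cd68, Csf1r, Itgam and Cd14). Adgre1, Itgax, Lyz2, Cd74 and H2-Aa were so on no array. Each marker is taken at 1 probe. Ptprc had 7 probes and Itgam 2, and 1 of each was tested. The processed signal summed over the 10 markers was 3543 on each siControl array and 3010 to 3276 on the siTIMP1 arrays. The part of such signals in the chemokine values was not tested. Of the T cell markers Cd3e and Cd4 were above background and Cd3d and Cd8a on no array (summed signal 695 to 841 in siControl, 540 to 695 in siTIMP1). Cd3e had 2 probes and Cd4 3, and 1 of each was tested. Kdr, Cdh5 and Tek of the endothelial list and Krt5, Epcam and Cdh1 of the epithelial list were above background on no array, whereas Pecam1 was so on 2 arrays, Krt18 on 1, and Krt8 and Krt14 on all 4. The endothelial sums were 14 in siControl and 19 to 21 in siTIMP1, and the epithelial sums 74 to 105 and 92 to 108.

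Of the 10 chemokine genes 9 were well above background on all 4 arrays and entered the fit through 10 probes. Ccl20, a CC ligand that attracts CCR6-bearing lymphocytes and dendritic cells, was not well above background on any array. The same held for a further probe of Cxcl10 and for one of Cx3cl1. The 9 measured genes thus passed the filter in both groups alike. Values below are log2 processed signals relative to the 75th percentile of their array, differences are siTIMP1 minus siControl, and signals of different probes are not set against each other, since each probe binds with its own strength. The signal is that of a whole culture, so a change in the number of expressing cells and a change of RNA per cell cannot be told apart.

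Ccl17, also called TARC, attracts T cells that carry the receptor CCR4. In siControl its normalised log2 signal was 0.59 and 0.61, and in siTIMP1 it was 1.85 and 1.89. The siTIMP1 arrays lay far above both siControl arrays, and the replicates of each group were close together (0.60 ± 0.01 in siControl and 1.87 ± 0.03 in siTIMP1, SD, n = 2). The unscaled processed signals were 281 and 278 against 684 and 703. The difference of 1.27 (SE 0.08) is a 2.41-fold higher level, and 0.530% of the 26015 tested probes had a larger log2 fold change. It stayed between 1.14 and 1.29 over 14 alternative settings. Of these, other filters and other fits cannot change a fold change, nor can the mean of probes for a gene with 1 probe. The single Ccl17 probe lies at chromosome 8, 97335770 to 97335829 on mm9, the build of the array files.

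**Figure D1:**
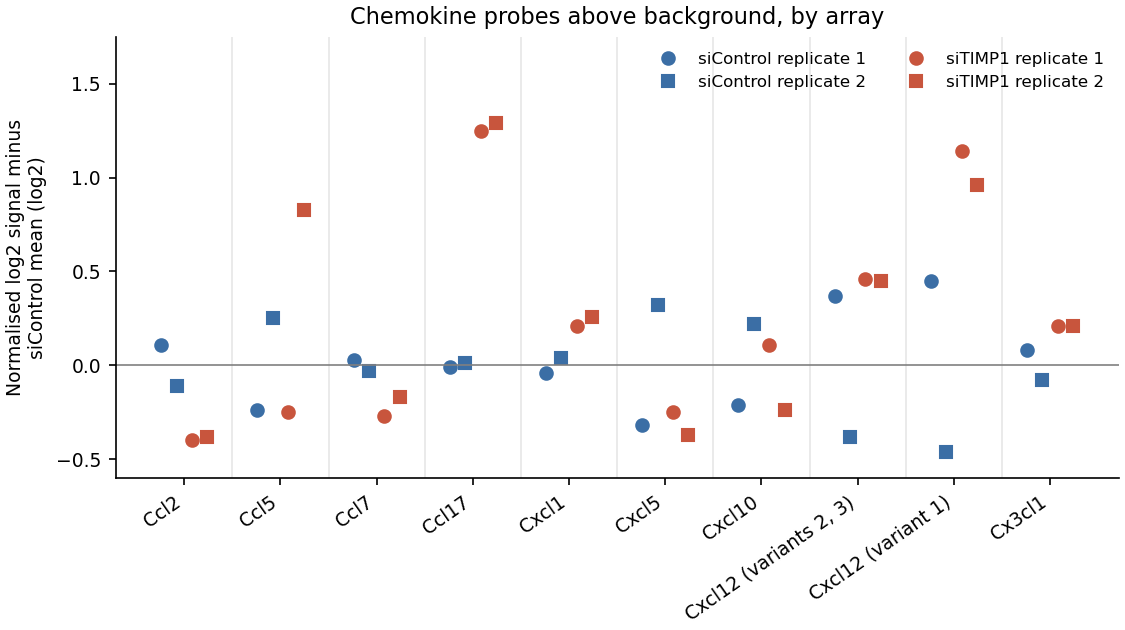
Normalised log2 signal of each chemokine probe above background on each of the 4 arrays, minus the mean of the siControl arrays for that probe (circles replicate 1, squares replicate 2, blue siControl, red siTIMP1). Ccl17 stands 1.27 above its siControl mean with replicates close together, while the arrays of a group lie apart for Ccl5 and, in siControl, for Cxcl12.

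The differences of the other CC ligands were smaller than that of Ccl17. Ccl2 (MCP-1), which recruits monocytes through CCR2, had values of 6.92 and 6.70 in siControl and 6.41 and 6.43 in siTIMP1. Both siTIMP1 arrays were below both siControl arrays, by 0.39 on average (SE 0.08). Ccl7 (MCP-3), a close relative of Ccl2 encoded beside it, read 5.19 and 5.13 in siControl against 4.89 and 4.99 in siTIMP1, a difference of -0.22 (SE 0.06). The groups did not overlap here either. For both genes the direction was the same under each of 14 alternatives, some of which cannot change it. The Ccl2 and Ccl7 probes lie 9.95 kb apart on chromosome 11 (mm9 81850650 to 81850709 and 81860656 to 81860715).

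Ccl5 (RANTES), which attracts T cells and monocytes, had the widest gap within a group. Its values were 0.46 and 0.95 in siControl and 0.45 and 1.53 in siTIMP1, so that the siTIMP1 arrays differed from each other by 1.08 and the groups overlapped. The difference of 0.29 (SE 0.38) became -0.25 without siTIMP1 replicate 2 and 0.83 without siTIMP1 replicate 1.

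The CXC ligands Cxcl1 and Cxcl5 act on neutrophils through CXCR2. Cxcl1 read -1.66 and -1.58 in siControl and -1.41 and -1.36 in siTIMP1, with no overlap and a difference of 0.23 (SE 0.12) that was 0.12 with normexp background correction. Cxcl5 read -3.26 and -2.62 in siControl and -3.19 and -3.31 in siTIMP1, which overlap. Its difference of -0.31 (SE 0.28) was -0.10 with normexp, -0.63 without siControl replicate 1 and 0.01 without siControl replicate 2. Cxcl10 (IP-10), an interferon-induced ligand of CXCR3, read -3.47 and -3.04 in siControl and -3.15 and -3.50 in siTIMP1. Its groups overlapped, and the difference of -0.07 (SE 0.27) had either sign when 1 array was left out (-0.28 to 0.15). Cxcl5 and Cxcl10 were dim, with processed signals of 19.1 to 29.6 and 16.8 to 22.1. On siTIMP1 replicate 2 the lowest value well above background over all probes was -3.85.

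Cxcl12 (SDF-1), the constitutive ligand of CXCR4 that stromal cells make, had probes for different transcript forms. The probe for variants 2 and 3 (chromosome 6, 117131227 to 117131286) read 2.75 and 2.00 in siControl and 2.84 and 2.83 in siTIMP1. The probe for variant 1 (chromosome 6, 117125026 to 117125085) read -0.74 and -1.65 in siControl and -0.05 and -0.23 in siTIMP1. Both probes were lowest on siControl replicate 2, which lay below siControl replicate 1 by 0.75 and 0.91, and both siTIMP1 arrays lay above both siControl arrays for either probe. The differences were 0.46 (SE 0.25) for variants 2 and 3 and 1.05 (SE 0.31) for variant 1. Without siControl replicate 1 they were 0.83 and 1.51, and without siControl replicate 2 they were 0.08 and 0.59.

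As a description, the difference between the Cxcl12 probes within each array was followed over the groups. The variant 1 probe minus the probe for variants 2 and 3 gave -3.49 and -3.65 in siControl and -2.90 and -3.06 in siTIMP1 (-3.57 ± 0.11 and -2.98 ± 0.11, SD, n = 2). Only the change of this quantity has a meaning, and it was 0.59, larger than the gap between the arrays of either group. An exact two-sided permutation test gave p = 0.333, the smallest that 2 arrays against 2 allow, and the comparison was chosen after the values were seen. With normexp background correction the change was 0.30, and the variant 1 probe had processed signals of 58.1 to 183.

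Cx3cl1 (fractalkine), the CX3C ligand, is made as a membrane-bound protein and released by ADAM proteases. It read 3.11 and 2.95 in siControl and 3.24 on each siTIMP1 array, a difference of 0.21 (SE 0.08) with no overlap between the groups. Its values over the alternatives lay between 0.13 and 0.29.

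**Figure D2:**
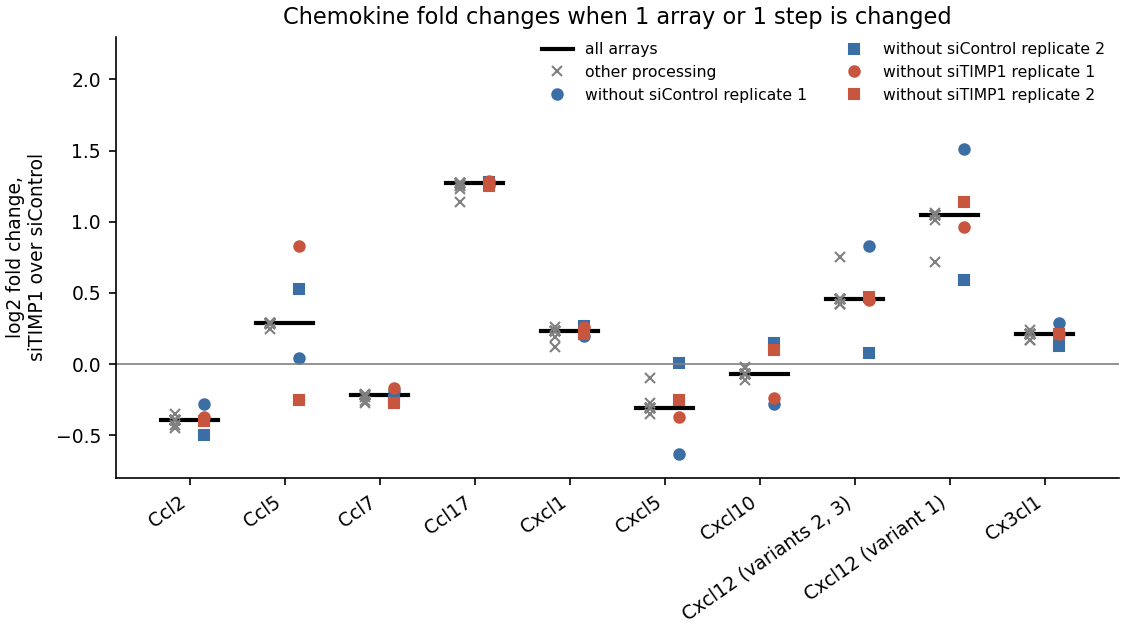
log2 fold change (siTIMP1 over siControl) of each chemokine probe above background with all arrays (black bars), with 1 array left out (coloured points) and with other processing (grey crosses). Ccl17 stays between 1.14 and 1.29, Ccl5, Cxcl5 and Cxcl10 reach both sides of 0, and both Cxcl12 probes move with the siControl array that is left out.

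Over the 9 measured genes, each taken at its brightest probe, 5 had higher and 4 lower values with siTIMP1. The median log2 fold change was 0.21, and 0.07 over the 8 genes other than Ccl17, beside 0.02 over all 17734 tested genes. One of the 9 passed the limma threshold (adjusted p under 0.05 over all tested probes), namely Ccl17, by which the family was chosen, beside 0.784% of all tested genes (0.0846% higher and 0.699% lower). It did not pass without siTIMP1 replicate 1 (1.29), without siTIMP1 replicate 2 (1.25) or without a variance trend. Each of 3 other probes passed in 1 of the alternatives, Ccl2 without siControl replicate 2 (-0.50) and both Cxcl12 probes without siControl replicate 1 (0.83 and 1.51). Ccl17 was also the only one past 2-fold, which 3.15% of all tested genes were. The groups did not overlap for 6 of the 9, 4 higher and 2 lower, and for 54.0% of all tested genes, 31.0% higher and 23.0% lower. The difference between the groups was larger than the gap between the arrays of either group for 5 of the 9. That share was not taken over all tested genes, so this count does not set the 9 apart. The siControl arrays differed by a median of 0.22 over the 9 genes and the siTIMP1 arrays by 0.05, against 0.15 and 0.12 over all tested probes.

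Ccl17 and Cx3cl1 are neighbours on chromosome 8, with no other protein-coding gene between them and Ccl22, another CCR4 ligand, on the far side of Cx3cl1. Their probes lie 29.5 kb apart (mm9). Ccl22 was not well above background on any array. The 3 tested genes on the side of Cx3cl1 had log2 fold changes of 0.41 (Arl2bp, SE 0.06, limma adjusted p = 0.0652), 0.13 (Rspry1) and -0.12 (Psme3ip1). On the side of Ccl17 they were 0.15 (Ciapin1), -0.13 (Coq9) and 0.22 (Polr2c). None of these 6 passed the threshold, with adjusted p-values from 0.0652 to 0.577 in limma. Each was smaller in size than the value of Ccl17.

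**Figure D3:**
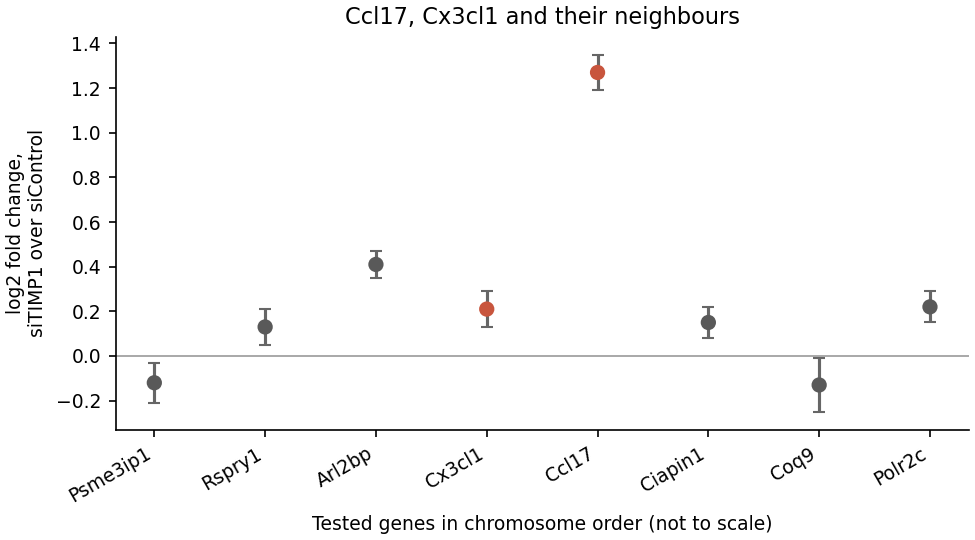
log2 fold change (siTIMP1 over siControl, bars are the SE of the limma fit on 4 arrays) of Ccl17 and Cx3cl1 (red) and the 3 tested genes on either side, in chromosome order and not to scale. The value of Ccl17 is 1.27 and the others lie between -0.13 and 0.41.

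The genes whose pattern over the 4 arrays was most like that of Ccl17 were AI646519, Plxnb3, Ssx2ip, Me3 and 1700101I11Rik. Likeness was the root mean square distance of log2 values after subtracting each gene's mean, and it ran from 0.044 (AI646519) to 0.101 (1700101I11Rik). Their log2 fold changes were 1.29, 1.21, 1.31, 1.16 and 1.09 in that order. With 4 arrays this says little more than that their differences between the groups were of like size.

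Outside the 10, most chemokine ligands were not measurable in these cells. Of 18 further CC ligands 16 had a probe and 5 were tested, and of 12 further CXC and XC ligands 1 was tested. No ligand of either list passed the threshold (limma, lowest adjusted p 0.236 and 0.623). At an unadjusted p under 0.05 there was 1, Ccl3 (MIP-1 alpha), with values of -2.08 and -2.35 in siControl and -1.83 and -1.51 in siTIMP1. The groups of Ccl3 did not overlap, and its difference of 0.55 (SE 0.19, limma adjusted p = 0.236) was 0.25 with normexp. Ccl27a, Ccl25, Ccl9 and Cxcl11 had log2 fold changes of 0.14, 0.11, -0.12 and -0.08, and the last 3 turned sign when 1 array was left out. The other tested probe of Cxcl11 gave -0.13, and those of Ccl27a gave 0.01 and 0.17.

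**Figure D4:**
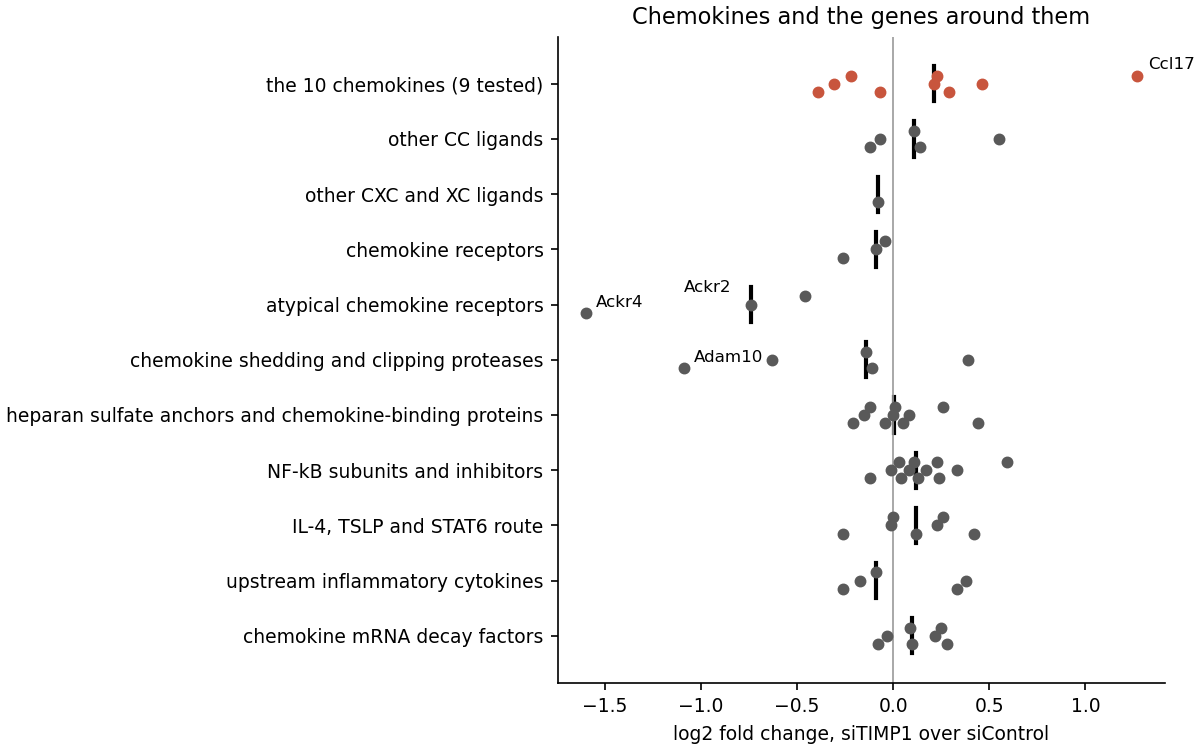
log2 fold change (siTIMP1 over siControl) of the tested genes of each list, 1 point per gene at its brightest tested probe, with the list median as a black bar; heights within a list only spread the points. Ccl17 lies at 1.27, all 3 tested atypical receptors lie below 0, and Adam10 lies at -1.09.

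The receptors known to bind the 10 chemokines were mostly not detected. Of 11 receptors known for these ligands 9 were well above background on no array, among them Ccr4 for Ccl17, Cxcr4 for Cxcl12, Cxcr2 for Cxcl1 and Cxcl5, and Cx3cr1 for Cx3cl1. Ccr2, the receptor of Ccl2 and Ccl7, was so on siTIMP1 replicate 2 alone. The atypical receptor Ackr3, counted among the 11 for Cxcl12, was so on all 4 arrays. In the list of 18 classical receptors 3 were tested (Ccr8, Cxcr6 and Ccr7, with log2 fold changes of -0.26, -0.09 and -0.04), and none passed the threshold (limma, lowest adjusted p 0.60, and 0 at an unadjusted p under 0.05).

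Atypical receptors, which take up chemokines without classical signalling, were measured for 3 of 5. Ackr3, which binds Cxcl12, read 2.32 and 3.03 in siControl and 2.27 and 2.16 in siTIMP1. Ackr2, which takes up inflammatory CC chemokines, read -1.91 and -1.50 against -2.36 and -2.53. Ackr4, which takes up homeostatic CC chemokines, read -3.09 and -1.33 against -4.17 and -3.45. Its siTIMP1 values were dim, with processed signals of 10.5 and 17.4. The lowest values well above background on those arrays were -4.58 and -3.85. Its siControl arrays lay 1.76 apart. For each of the 3 receptors both siTIMP1 arrays were below both siControl arrays, where 23.0% of all tested genes had such an order. The differences were -0.46 (SE 0.23), -0.74 (SE 0.20) and -1.60 (SE 0.63), with limma adjusted p-values of 0.361, 0.176 and 0.273, so none passed. All 3 genes were higher on siControl replicate 2, and without that array the differences were -0.10, -0.53 and -0.72, while with normexp they were -0.40, -0.33 and -0.54. Without siControl replicate 1, Ackr3 (-0.81) and Ackr4 (-2.48) passed.

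Of 10 proteases that shed or clip chemokines 5 were tested. Of these, 4 had lower values and 1 was called lower, where 0.699% of all tested genes were called lower. The list was chosen with earlier results of these data known, so this count does not set it apart. Adam10, a membrane protease that releases Cx3cl1 from the cell surface, read 2.09 and 2.24 in siControl and 1.13 and 1.03 in siTIMP1. It fell by 1.09 on the log2 scale (SE 0.09, limma adjusted p = 0.0281), and its other tested probe gave -1.04. Its adjusted p ran from 0.00242 to 0.230 over the alternatives, and the call was lost without siTIMP1 replicate 1, without siTIMP1 replicate 2, without a variance trend and with the mean of its probes, with little change in size (-1.16 to -0.95). Adam17, the other main sheddase of Cx3cl1, had a value of -0.14 (limma adjusted p = 0.538), and its other tested probes gave -0.40 and -0.13. Mmp9 and Mmp2, secreted gelatinases that can clip chemokines, had -0.63 and 0.39 (limma adjusted p = 0.157 and 0.262); another Mmp9 probe gave -0.00. Both passed without siControl replicate 1 (-0.81 and 0.60), while without siControl replicate 2 they were -0.46 and 0.19. Dpp4, which trims Cxcl12 and Cxcl10, was not well above background on any array.

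All 10 genes for heparan sulfate anchors and chemokine-binding proteins were tested and none passed (limma, lowest adjusted p 0.209, 1 at an unadjusted p under 0.05). Tnfaip6, which encodes the chemokine-binding protein TSG-6, had a value of 0.44, Hs2st1 of 0.26 (-0.03 on its other probe), Ext2 of -0.21 (-0.07 with normexp, 0.00 without siTIMP1 replicate 1) and Gpc1 of -0.15. Tnfaip6 passed without siControl replicate 1 (0.63), as did Gpc1 (-0.32), while without siControl replicate 2 they were 0.24 and 0.02.

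Genes of the routes that switch chemokines on were tested from lists. None of the 12 NF-kB subunits and inhibitors passed (limma, lowest adjusted p 0.148, 1 at an unadjusted p under 0.05), with 10 higher and 2 lower values and a median of 0.12. Nfkbiz had the largest value, 0.59 (adjusted p = 0.148), then Tnfaip3 (0.33), Rel (0.24) and Rela (0.23). With normexp Nfkbiz was 0.31 and Tnfaip3 0.18, and the other Rela probe gave 0.47. In the IL-4, TSLP and STAT6 route, known to induce Ccl17, 7 of 8 were tested and none passed (median 0.12, lowest adjusted p 0.188 in limma, 2 at an unadjusted p under 0.05). Its largest values were those of Il13ra1 (0.42), Il2rg (0.26), Il1rl1 (-0.26) and Crlf2 (0.23), and Stat6 itself had -0.01. Without siControl replicate 1, Il13ra1 (0.63) and Il1rl1 (-0.48) passed, while without siControl replicate 2 they were 0.21 and -0.03. Other probes of Il1rl1 gave -0.20 and 0.02, and that of Crlf2 0.03.

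Of 10 upstream inflammatory cytokines 5 were tested and none passed (limma, lowest adjusted p 0.145, 2 at an unadjusted p under 0.05). Il6 read 1.78 and 1.80 in siControl and 2.08 and 2.17 in siTIMP1, a difference of 0.33 (SE 0.08). Lif had a value of 0.38, Csf1 of -0.26 (-0.14 and -0.08 on its other probes) and Il11 of -0.17. Without siControl replicate 1 Il11 passed (-0.45) and Lif was -0.09, while without siControl replicate 2 they were 0.11 and 0.84. Lif was 0.16 with normexp. Il1a, Il1b and Ifng were not well above background on any array. The 7 mRNA decay factors were all tested and none passed (median 0.10, lowest adjusted p 0.195 in limma, 2 at an unadjusted p under 0.05). Zfp36, which encodes the AU-rich element binding protein tristetraprolin, had a value of 0.28, Zc3h12a of 0.25 (-0.04 on its other probe), Elavl1 of 0.22 and Khsrp of 0.10. The other Khsrp probe gave -0.25 and the mean of both -0.08. For each of these lists a p above the threshold does not show that the genes were alike in both groups. The share of all tested genes at an unadjusted p under 0.05 was not taken in the main fit. The counts at that cut therefore do not set any list apart.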

How the data were processed

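The data are 4 Agilent arrays of 1 colour (2 siControl, 2 siTIMP1). Spot intensity values were deposited by the authors as scanner output. The submitters' processing notes name Feature Extraction 11.5.1.1. Per the file headers, processed intensity is background-subtracted and detrended within an array and not scaled between arrays. The deposited value table holds log2 values that followed log2 processed intensity minus 1 constant per array (6.90 to 6.96).

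Here log2 processed intensity was taken minus each array's 75th percentile over all non-control spots, and the non-outlier spots of a probe were averaged. Tested probes had a value on every array and were well above background throughout siControl, siTIMP1 or both (26015 of 56605 probes). The test was limma 3.58.1 under R 4.3.3 (eBayes with a trend, Benjamini-Hochberg over all tested probes, threshold 0.05). The fit was also run on simulated arrays with independent normal noise of the fitted size. Array-wide shifts were not simulated, so that run checks the code and not the assumptions of the fit. A gene is its brightest tested probe. Named genes are every probe of the 10 members, Timp1, up to 4 genes per list (called first, then largest change), the 3 tested neighbours on either side and the 5 genes nearest to Ccl17; other genes are named only for being undetected or without a size, except Stat6, added after its value was seen. 1 further list is not reported here. Members and lists were chosen with earlier results of these data known. RefSeq accessions matched 32989 probes and updated 1534 symbols. Alternatives were quantile scaling, the percentile over detected probes, normexp, the deposited value table, other filters and fits, and leaving out each array. The number of arrays limits the precision.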

Additional observations from a re-analysis of the deposited data

How the results depend on the processing

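Over all tested probes, 16 were called higher and 163 lower. These counts became 124 and 334 with no filter on dim probes, 61 and 249 with robust eBayes, 181 and 384 at an adjusted p under 0.1, and 0 and 0 in limma without a trend, where 4216 probes had an unadjusted p under 0.05. Leaving out 1 array gave 0 to 483 higher and 0 to 840 lower. The counts were 483 and 840 without siControl replicate 1, 99 and 293 without siControl replicate 2, and 0 without siTIMP1 replicate 1 or 2 in limma, with 2920 and 2692 probes at unadjusted p under 0.05. The cause was not tested; with 1 array left in a group, limma assumes that it varies like the others. The call of Ccl17 was kept in 11 of 14 alternatives and lost without a trend, without siTIMP1 replicate 1 (1.29) and without siTIMP1 replicate 2 (1.25). Ccl17 chose the family in these same arrays, and several of these settings leave its values unchanged or nearly so. The count is thus no independent support for its higher level. Of 139 chemokine values under alternatives, some of which cannot change a fold change, 136 moved by no more than the spread between replicates. The others were Ccl17 (1.14 with normexp, 1.23 with the percentile over detected probes) and Cxcl1 (0.12 with normexp). Leaving out an array shifts a fold change by less than the gap between that group's arrays. Such values, here and for the other named genes, thus stay within the spread by construction. Ccl5, Cxcl5 and Cxcl10 are among them although they changed sign, so the count does not measure stability. Ccl2 gained a call without siControl replicate 2 and both Cxcl12 probes without siControl replicate 1. For the other named genes 653 values stayed on their side of the threshold or within the spread, 14 gained and 7 lost a call, and 1 moved (the change between the Cxcl12 probes, 0.30 with normexp). Of the 14 gained calls most came without siControl replicate 1. Scaling shifted the median of all tested probes by little (-0.022 to 0.019). No paired analysis was possible because siControl and siTIMP1 arrays carry no shared number in the labels. Genes not well above background are not measured here.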
